A study of Mus musculus with 2 samples.

Results

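The semaphorins, plexins, Eph receptors and ephrins of the mouse were followed through GATA4 ChIP-seq of adult liver. All protein-coding genes of the GENCODE M1 annotation whose symbol begins with Sema and a digit, Plxn, Epha, Ephb, Efna or Efnb were taken, which gave 51 of 22238 genes: 20 semaphorins, 9 plexins, 14 Eph receptors and 8 ephrins. A GATA4 occupied site (OS) was counted for a gene when the midpoint of the peak lay in the gene body or within 10 kb of it. By this rule 10 of the 51 genes held 19 of the 4409 OS of the common list, the list of peaks found by both SPP and MACS2. The families were chosen by the positions of these same peaks, so their occupancy is given as a description and was not tested. GATA4 was precipitated with the antibody C-20 from whole livers of C57BL/6 x Sv129 mice, 2 to 3 months old by the labels, with liver DNA that was not precipitated as input. The labels name 1 ChIP sample and 1 input sample and no genotype or treatment, while the methods describe 2 biological replicates of 2 mice each, with peaks called on the replicates and on their pool. Every peak carries a display score of 1000, and with no read number given for any peak the depth behind a single OS is unknown. With 1 pooled sample there is no replicate error. Peaks hold no expression values, so the labelled tissue could not be checked by the level of its markers. In whole liver the peaks alone do not tell which cells carry GATA4 at a site.

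Semaphorins are secreted or membrane-bound guidance cues, and plexins are their receptors, whose cytoplasmic part acts on small GTPases. Class 3 semaphorins mostly need a neuropilin beside the plexin. Eph receptors are receptor tyrosine kinases, and their ligands, the ephrins, stay on the membrane of the neighbouring cell, A ephrins by a lipid anchor and B ephrins by a transmembrane segment. These systems were first known for steering axons, and they also act in vessels, where Plxnd1 reads Sema3e and where Ephb4 on veins meets Efnb2 on arteries.

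The sequences of the OS are the reference bases under the called peaks at these genes, and not reads of the precipitated DNA. One OS is printed for each of 8 genes, the earliest of the gene in the common list, to set the GATA motifs of plexin, semaphorin and Eph genes side by side. Sequences are those of the plus strand of mm9, 5′ to 3′, cut to 300 bases around the midpoint where the OS was wider. Capitals mark WGATAR, the motif that GATA factors bind, a word of A or T, then GATA, then A or G. A match on the minus strand shows as its reverse complement, so that AGATAA appears as TTATCT. The stretches of Plxnc1 and Ephb4 each leave out 1 further match that lies nearer the edge of the OS.
Plxnc1 site 69, chr10:94263714-94264013: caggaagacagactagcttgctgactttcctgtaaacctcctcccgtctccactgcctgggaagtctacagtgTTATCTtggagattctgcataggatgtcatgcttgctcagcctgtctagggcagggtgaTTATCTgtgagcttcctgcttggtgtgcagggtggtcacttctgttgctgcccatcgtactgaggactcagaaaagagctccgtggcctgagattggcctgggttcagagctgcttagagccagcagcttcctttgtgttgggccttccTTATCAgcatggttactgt
Plxna2 site 1380, chr1:196486632-196486826: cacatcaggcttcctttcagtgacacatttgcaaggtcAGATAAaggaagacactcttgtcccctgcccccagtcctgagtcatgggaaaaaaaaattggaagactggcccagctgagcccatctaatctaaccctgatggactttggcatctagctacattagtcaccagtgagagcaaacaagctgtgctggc
Plxna4 site 3456, chr6:32443526-32443825: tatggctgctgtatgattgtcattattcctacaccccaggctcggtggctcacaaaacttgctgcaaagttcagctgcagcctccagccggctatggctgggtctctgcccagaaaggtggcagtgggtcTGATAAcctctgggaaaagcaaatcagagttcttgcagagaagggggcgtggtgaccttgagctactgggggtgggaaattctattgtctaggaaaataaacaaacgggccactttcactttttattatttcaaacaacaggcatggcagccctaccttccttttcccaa
Plxnd1 site 3076, chr6:115946210-115946396: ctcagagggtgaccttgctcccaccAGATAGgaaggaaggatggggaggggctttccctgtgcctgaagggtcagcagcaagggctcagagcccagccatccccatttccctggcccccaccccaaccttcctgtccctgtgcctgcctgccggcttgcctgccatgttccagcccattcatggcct
Sema4b site 624, chr7:87330981-87331225: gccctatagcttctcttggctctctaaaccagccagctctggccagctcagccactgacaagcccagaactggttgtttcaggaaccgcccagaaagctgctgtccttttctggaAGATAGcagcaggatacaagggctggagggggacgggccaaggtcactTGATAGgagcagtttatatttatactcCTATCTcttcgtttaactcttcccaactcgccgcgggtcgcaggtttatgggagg
Epha2 site 2828, chr4:140865817-140865980: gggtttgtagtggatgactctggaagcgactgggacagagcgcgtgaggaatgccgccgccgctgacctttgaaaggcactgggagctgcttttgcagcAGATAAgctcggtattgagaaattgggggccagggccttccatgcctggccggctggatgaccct
Ephb1 site 2670, chr9:102086283-102086406: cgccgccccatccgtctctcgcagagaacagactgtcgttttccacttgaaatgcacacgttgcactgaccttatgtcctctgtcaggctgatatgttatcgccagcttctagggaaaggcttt
Ephb4 site 30, chr5:137789906-137790205: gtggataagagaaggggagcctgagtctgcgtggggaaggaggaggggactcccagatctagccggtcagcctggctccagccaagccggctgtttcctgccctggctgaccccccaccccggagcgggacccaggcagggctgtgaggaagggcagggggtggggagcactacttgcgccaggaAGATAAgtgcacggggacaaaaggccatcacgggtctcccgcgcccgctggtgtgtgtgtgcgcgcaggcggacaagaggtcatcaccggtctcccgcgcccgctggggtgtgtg

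Plxnc1 held more OS than any other member, and the stretch of 20 bases on either side of the WGATAR nearest the midpoint is given for its other 5 OS, an addition made after the values were seen.
Plxnc1 site 236, chr10:94394900-94394945: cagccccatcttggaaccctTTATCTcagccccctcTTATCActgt
Plxnc1 site 1612, chr10:94298819-94298864: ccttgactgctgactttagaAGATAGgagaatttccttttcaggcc
Plxnc1 site 2100, chr10:94261055-94261100: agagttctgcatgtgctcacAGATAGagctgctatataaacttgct
Plxnc1 site 2455, chr10:94297980-94298025: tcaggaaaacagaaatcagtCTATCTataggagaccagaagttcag
Plxnc1 site 4219, chr10:94386275-94386320: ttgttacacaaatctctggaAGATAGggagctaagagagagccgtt
In all 6 Plxnc1 OS the capitals include AGATAA or AGATAG on one of the strands, and OS 69 and OS 236 also carry TGATAA. The OS of Ephb1 has no capitals, since its nearest words, TGATA at chr9:102086372-102086376 and GATAA at chr9:102086379-102086383 on the minus strand, are each 1 base short of the full motif.

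The 10 genes were Plxna2, Plxna4, Plxnc1 and Plxnd1 among the plexins, Sema4b, Sema6a and Sema6d among the semaphorins, and Epha2, Ephb1 and Ephb4 among the Eph receptors. They were 19.6% of the 51 genes (Wilson 95% interval 11.0 to 32.5), beside 13.7% of all other protein-coding genes (3033 of 22187). At least 2 OS were held by 4 members (7.84%), Plxna4, Plxnc1, Sema4b and Sema6a, beside 3.01% of the other genes. At least 6 OS were held by Plxnc1 (1.96%), beside 0.0766% of the other genes. These shares chose the families, and nothing is read from them here.

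The members are longer than other genes, with a median span of 29.0 kb against 15.5 kb, and a longer window holds more OS by length alone. Per Mb of window the 51 genes held 2.45 OS (exact Poisson 95% interval 1.48 to 3.83, counting error only) and all other protein-coding genes 2.54. Within the members it was uneven. Plexins held 8.76 OS per Mb (10 OS), semaphorins 1.95 (6 OS), Eph receptors 0.998 (3 OS) and ephrins 0 in 0.524 Mb. Without Plxnc1 the other 8 plexins held 4 OS, or 4.13 per Mb. Plxnc1 carried 6 of the 19 OS, and without it the remaining 50 genes held 13 OS, or 1.72 per Mb. Of the members under 25 kb, 0 of 19 held an OS, beside 9.2% of other genes of that span. From 25 to 100 kb it was 4 of 13 (30.8%, Wilson 95% interval 12.7 to 57.6) beside 18.3%. From 100 to 200 kb it was 3 of 8 (37.5%, 13.7 to 69.4) beside 25.6%, and over 200 kb 3 of 11 (27.3%, 9.75 to 56.6) beside 31.8%.

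**Figure D1:**
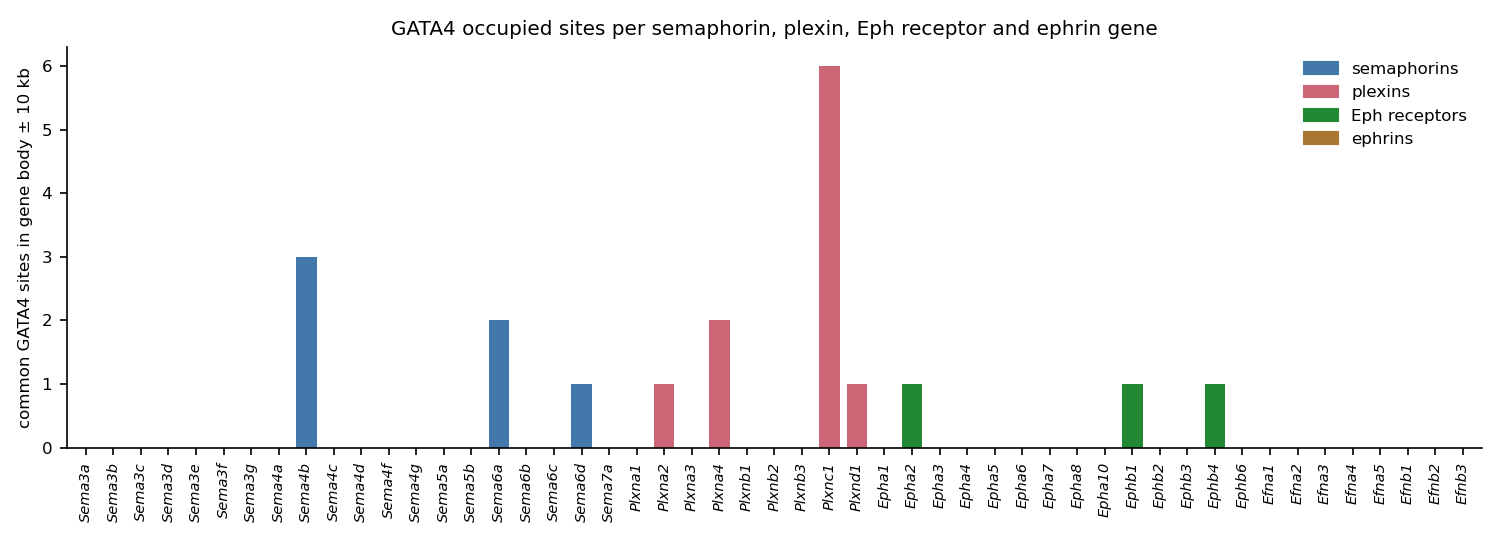
Number of common GATA4 OS in the gene body or within 10 kb of it (vertical axis) for each of the 51 genes (horizontal axis), coloured by family. Plxnc1 stands above all others with 6 OS, Sema4b has 3, and all 8 ephrins are at 0.

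Plxnc1, the receptor of Sema7a, spans chr10:94253617-94407212 on the minus strand (ENSMUSG00000074785.3). All 6 of its OS lay in introns, in 3 pairs. Near the start of the gene, OS 236 (chr10:94394706-94395085) and OS 4219 (chr10:94386210-94386362) lay 12317 and 20926 bp from the TSS in intron 1, with 8609 bp between their midpoints. In intron 17, OS 1612 (chr10:94298722-94298900) and OS 2455 (chr10:94297885-94298041) were 848 bp apart. Toward the end of the gene, OS 69 (chr10:94263631-94264095) lay in intron 24 and OS 2100 (chr10:94260992-94261124) in intron 26, 2805 bp apart. Gaps of 87475 and 34100 bp separated the pairs. The Plxnc1 OS held 13 WGATAR in all, 4 of them in OS 69 and 3 in OS 236, the widest OS of the gene at 465 and 380 bp. OS 2100 also fell in the window of a neighbour, Ccdc41, and the TSS nearest to it and to OS 69 was that of Ccdc41, 109523 and 112328 bp away.

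The other plexins with an OS had fewer. Plxna2 and Plxna4 are receptors of Sema6a and, with neuropilins, of class 3 semaphorins. Plxna2 (chr1:196446023-196643063, plus strand) held OS 1380 (chr1:196486632-196486826) in intron 3, 40706 bp from its TSS. Plxna4 (chr6:32094565-32538192, minus strand) held OS 3456 (chr6:32443516-32443835) and OS 3719 (chr6:32347395-32347714), both in its intron 3 of 186120 bp and 96121 bp apart. Each of these 3 OS had a single WGATAR. Plxnd1 (chr6:115904829-115945023, minus strand), a plexin known from endothelial cells, had OS 3076 (chr6:115946210-115946396) 1280 bp upstream of its TSS, again with a single WGATAR. All 10 plexin OS therefore contained the motif. Plxna1, Plxna3, Plxnb1, Plxnb2 and Plxnb3 held no OS. The closest OS lay 15.8 kb outside Plxnb2, 35.7 kb outside Plxnb1, 48.5 kb outside Plxna3, 53.6 kb outside Plxna1 and 621 kb outside Plxnb3.

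Among the semaphorins, OS were at the transmembrane classes 4 and 6. Sema4b (chr7:87331727-87371280, plus strand) held OS 624 (chr7:87330981-87331225) 624 bp upstream of its TSS, OS 3797 (chr7:87330090-87330214) 1575 bp upstream, and OS 3058 (chr7:87340762-87341081) in intron 1, 9194 bp downstream. The first of these was the only member OS within 1 kb of a TSS. Their WGATAR numbers were 3, 1 and 3. Sema6a, a ligand of Plxna2 and Plxna4, lies on chromosome 18 from 47395252 to 47528524 on the minus strand. It held OS 3072, 1577 bp upstream of the TSS, and OS 3304 in intron 1, 1957 bp from the start of another transcript of the gene. Sema6d (chr2:123915705-124493506, plus strand) held OS 4353 (chr2:124442511-124442830) in intron 5, 6333 bp from the start of another transcript. The OS of Sema6a and Sema6d contained no WGATAR. All 7 class 3 genes (Sema3a, Sema3b, Sema3c, Sema3d, Sema3e, Sema3f and Sema3g), both class 5 genes (Sema5a and Sema5b), Sema7a and 5 of the 6 class 4 genes (Sema4a, Sema4c, Sema4d, Sema4f and Sema4g) held none, and neither did Sema6b or Sema6c.

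**Figure D2:**
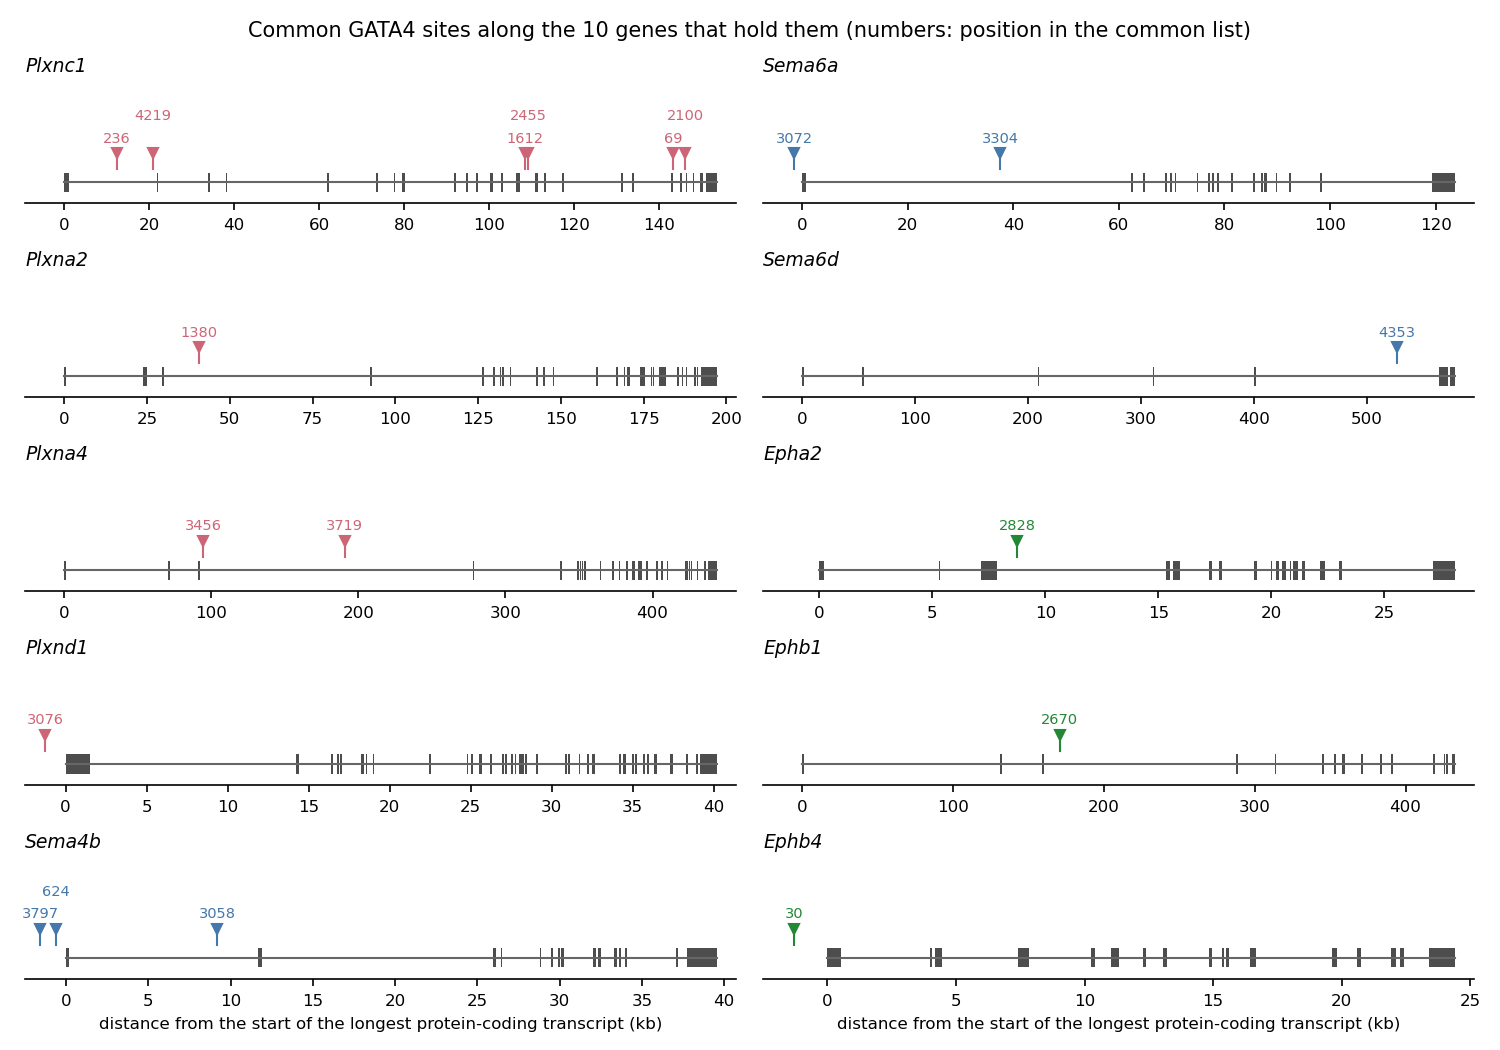
Gene models of the 10 genes with an OS, drawn to scale along the distance from the start of the longest protein-coding transcript (horizontal axes, kb, a scale of its own for each gene). Dark boxes are exons, arrowheads are OS midpoints and numbers are positions in the common list. The 6 Plxnc1 OS form 3 pairs, and the OS of Plxnd1 and Ephb4 lie just upstream of the start.

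Of the Eph receptors, Ephb4 had the earliest OS of all members. Ephb4 (chr5:137791337-137819897, plus strand), the venous receptor of Efnb2, held OS 30 (chr5:137789876-137790235), 1282 bp upstream of its TSS. This OS was 360 bp wide, its GC content was 64.4%, and the MACS2 peak around it was number 6 of 5867 and 2737 bp wide. It held 2 WGATAR, and its AGATAA at chr5:137790091-137790096 runs on from an AGGAAG with 2 bases shared. Epha2 (chr4:140857155-140885299, plus strand), a receptor of A ephrins, held OS 2828 (chr4:140865817-140865980) in intron 3, with 1 WGATAR. Ephb1 (chr9:101824458-102257023, minus strand), a receptor of B ephrins, held OS 2670 (chr9:102086283-102086406) in its intron 3 of 127747 bp, 170679 bp from the TSS. The other 11 Eph receptor genes, Epha1, Epha3, Epha4, Epha5, Epha6, Epha7, Epha8, Epha10, Ephb2, Ephb3 and Ephb6, had no OS.

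No ephrin gene held an OS in the 10 kb window of the common list, the SPP list or the MACS2 list. The closest was Efna2, with OS 3391 at 14.4 kb from the gene. Efnb2, the partner of Ephb4, had its nearest OS at 158 kb, Efnb3 at 136 kb and Efnb1 at 3001 kb. Efna1, Efna3 and Efna4, which neighbour each other on chromosome 3, shared the same nearest OS at 498 to 554 kb, and Efna5 had its nearest at 982 kb. Counted by role, 3 of 28 ligand genes (10.7%, Wilson 95% interval 3.71 to 27.2) and 7 of 23 receptor genes (30.4%, 15.6 to 50.9) held an OS, beside 13.7% of all other genes. These shares take no account of length. Median spans were 9.97 kb for ephrins, 34.3 kb for semaphorins, 40.2 kb for plexins and 92.4 kb for Eph receptors. Of other genes under 25 kb, 9.2% held an OS. Among the ligand and receptor groups named here, both sides were occupied in 1, Sema6a with Plxna2 and Plxna4. For Plxnc1 with Sema7a, Plxnd1 with Sema3e and Ephb4 with Efnb2, the receptor held an OS and the ligand did not, the nearest OS to Sema7a being at 246 kb and to Sema3e at 1487 kb. The receptor side alone was also occupied for Plxna2 and Plxna4 with class 3 semaphorins, Epha2 with A ephrins and Ephb1 with B ephrins. Ligand and receptor pairs were named after the values were seen, and they are not all the pairs of these families. The ligands Sema4b and Sema6d also held OS, and no receptor was named for them.

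At the 10 kb limit, no member depended on a small difference on the inner side. The members that held OS only outside the gene body were Plxnd1 and Ephb4, at 1.28 kb each. On the outer side, Sema3b lay just beyond the limit, with the midpoint of OS 3422 at 10.041 kb, followed by Efna2 at 14.4 kb, Plxnb2 at 15.8 kb and Sema4a at 20.1 kb. With 50 kb allowed, 17 members had an OS, among them Plxna3, Plxnb1 and Plxnb2, so that 7 of the 9 plexins did. The 17 were 33.3% of the members, beside 27.7% of all other protein-coding genes in that window.

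**Figure D3:**
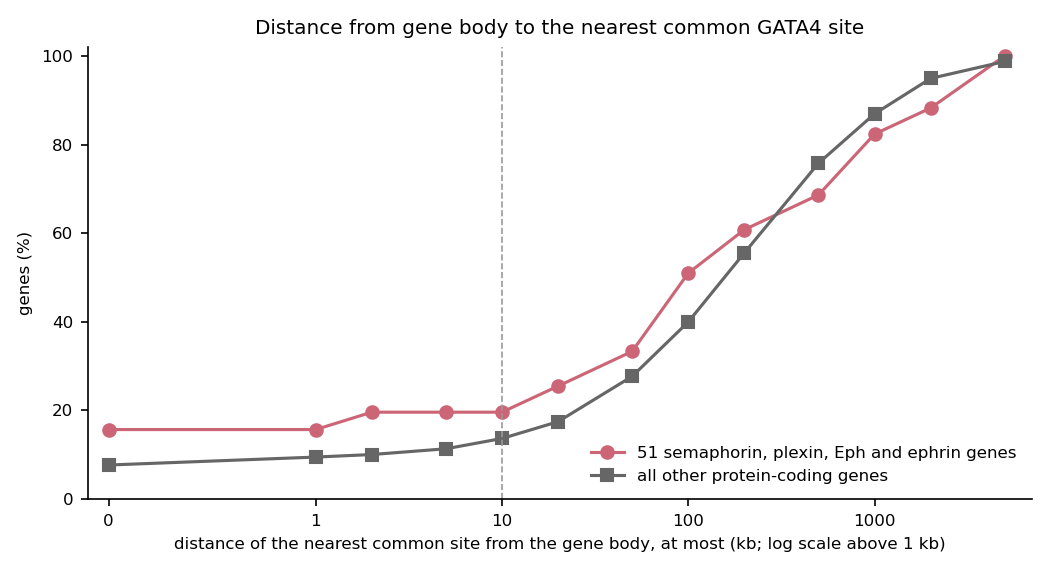
Percent of genes (vertical axis) whose nearest common OS lies at most a given distance from the gene body (horizontal axis, kb, logarithmic above 1 kb, 0 meaning inside the gene), for the 51 members and all other protein-coding genes. The dashed line marks 10 kb, where the values are 19.6% and 13.7%. The members lie above the other genes up to 200 kb and below them at 500 kb.

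Introns held 14 of the 19 OS, and the other 5 lay upstream of the TSS, each within 2 kb of it. Exons and downstream regions held 0. The nearest protein-coding TSS belonged to the member itself for 17 OS. Within 1 kb of a protein-coding TSS lay 1 of 19 (5.26%, Wilson 95% interval 0.935 to 24.6), beside 20.5% of the 3164 OS at other protein-coding genes. Within 2 kb it was 6 of 19 (31.6%, 15.4 to 54.0) beside 26.1%. More than 50 kb from any protein-coding TSS lay 7 of 19 (36.8%, 19.1 to 59.0), beside 13.5% (12.3 to 14.7) of the OS at other genes. Those 7 were 4 OS of Plxnc1, 2 of Plxna4 and the OS of Ephb1, all in genes over 100 kb long.

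Since scores do not rank the peaks, the number of each OS in the common list was used, for which the files do not say what order it follows. The numbers ran in step with the SPP list, in which OS 30, 2828 and 4353 were peaks 31, 2880 and 4716. By the methods, peaks were ranked by signal value for SPP and by p-value for MACS2. Whether the numbers in the files keep those ranks is not stated. The 19 OS took numbers 30 to 4353 with a median of 2828, beside 2205 for all 4409. In the 4 equal blocks of the list, from head to end, there were 4, 3, 7 and 5. The plexin OS ran from 69 to 4219 (median 2277.5), the semaphorin OS from 624 to 4353 (median 3188) and the Eph receptor OS from 30 to 2828. Those at the head were Ephb4 (30), Plxnc1 (69 and 236) and Sema4b (624). The MACS2 list placed them otherwise. In percent of each list, the median was 64.1% in the common list and 40.4% for the overlapping MACS2 peaks, where all common OS had 37.4%. OS 2828 of Epha2, for example, overlapped MACS2 peak 1890, whereas OS 3058 of Sema4b overlapped MACS2 peak 5699 of 5867.

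**Figure D4:**
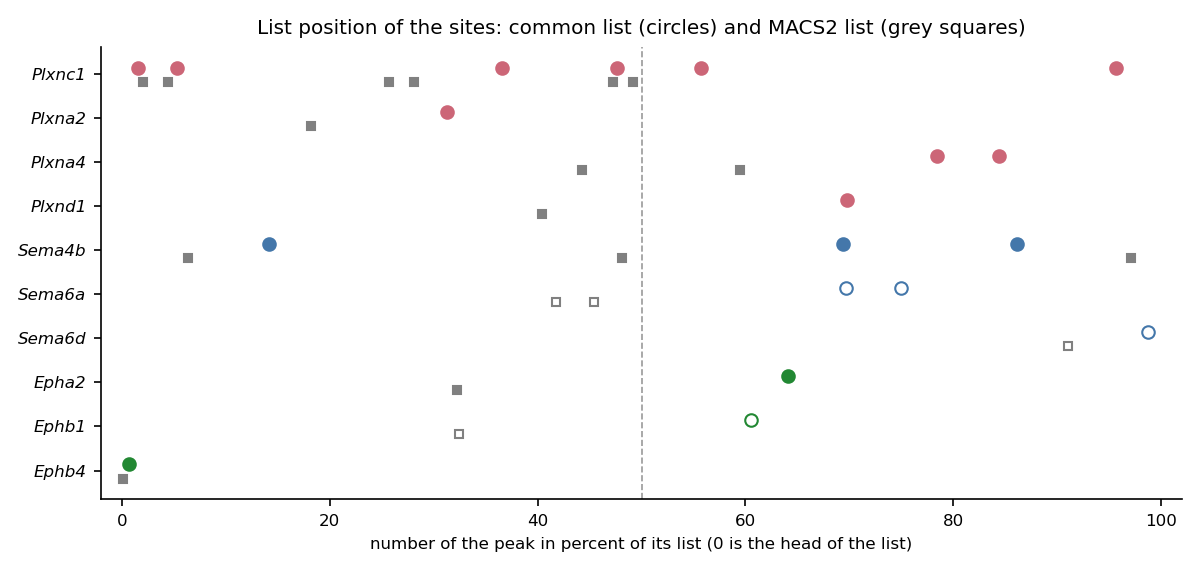
Number of each OS in percent of its list (horizontal axis, 0 at the head) for the 10 genes, as circles for the common list and grey squares for the overlapping peak of the MACS2 list. Open symbols are OS without WGATAR. The OS of Ephb4 and 2 of the 6 OS of Plxnc1 (69 and 236) lie at the head of both lists, while Sema6d lies at the end of both.

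WGATAR was searched on both strands of each OS. It was present in 15 of 19 (78.9%, Wilson 95% interval 56.7 to 91.5), beside 82.9% of all 4409 OS, and in 8 of 19 windows shifted 5000 bp to the right of each OS (42.1%, 23.1 to 63.7), beside 31.9% of all shifted windows. The 4 without it were those of Ephb1, Sema6a (2 OS) and Sema6d. With WGATA or GATAR accepted, all 19 held a match, beside 92.9% of all OS. No motif was found in 4 OS, 1 in 8, and 2 or more in 7. OS with 3 or more were those of Plxnc1 (69 and 236) and Sema4b (624 and 3058), which made 4 of 19 (21.1%) beside 9.75% of all OS. These 4 were 465, 380, 245 and 320 bp wide, beside a median of 190 bp over all OS. A wider OS holds more matches by length alone, and the shares take no account of width. Of the 27 matches, AGATAA made 9, TGATAA made 8, AGATAG made 7 and TGATAG made 3. AGATAG thus made up 25.9% of them beside 17.5% over all OS, and AGATAA 33.3% beside 44.6%. A WGATAR within 50 bp of the midpoint was present in 13 of the 19 OS. With the gene, 16 of 27 read in the same direction. Matches of 1 gene are not independent, and 13 of the 27 are from Plxnc1.

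Words of other factors were then counted in the same way. AGGAAG, a core that ETS factors bind, was in 11 of 19 OS (57.9%, Wilson 95% interval 36.3 to 76.9), beside 42.8% of all OS. In the shifted windows AGGAAG was in 6 of 19 (31.6%, 15.4 to 54.0), beside 23.5% of all such windows. All 6 Plxnc1 OS held it, with 11 matches in all, and 5 of the other 13 OS did. In OS 69 of Plxnc1, 4 AGGAAG stood among 4 WGATAR. The forkhead word TGTTTNC was in 6 OS (31.6%) beside 25.9% of all OS. TTGCNNAA, for C/EBP factors, was in 3 (15.8%) beside 12.7%, and TGANTCA, for AP-1, in 2 (10.5%) beside 7.55%. CAAAGTCCA, for HNF4, was in the OS of Plxna2 (5.26% of the 19) beside 1.16%. The composite of an E-box and a GATA site, in which 9 bases of any kind lie between CTG and a GATA core, was in OS 1612 of Plxnc1 (5.26%) beside 6.37%. The HNF1 consensus was in 0 of 19 beside 0.136%. With 19 OS the intervals were wide, and a match is a string of letters and not a bound site.

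**Figure D5:**
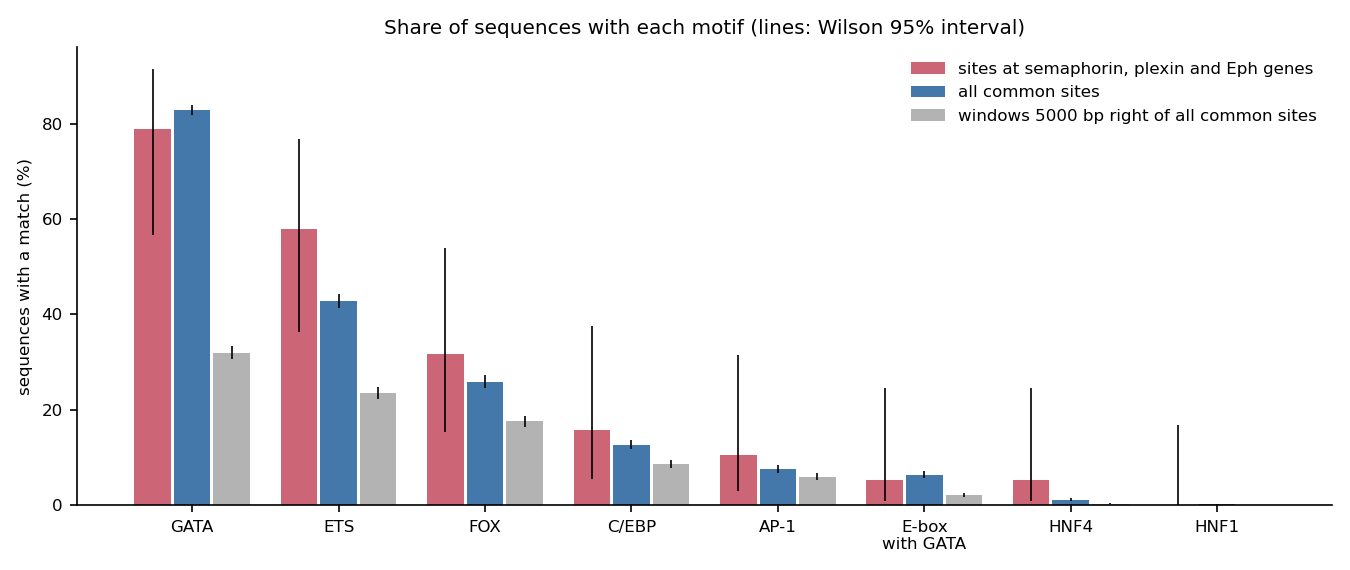
Percent of sequences with at least 1 match (vertical axis) to each motif (horizontal axis) for the 19 member OS, all 4409 common OS and, for the latter, windows shifted to the right by 5000 bp. Lines are Wilson 95% intervals. WGATAR is in 78.9% of member OS and 82.9% of all OS, against 31.9% of the windows.

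The lists of the single peak callers changed little. The common list is made of SPP peaks that MACS2 also found, so the SPP list could only add peaks. The SPP list gave the same 10 genes and 19 peaks, beside 14.5% of other genes. The MACS2 list gave 12 genes (23.5%), beside 17.4% of other genes. It added 2 genes. Epha1, a receptor of A ephrins, held MACS2 peak 5775 (chr6:42309370-42310104) inside the gene with 4 WGATAR and peak 5693 at 5.27 kb outside it with 2, both near the end of that list. Sema3b was the other, through the peak that missed the limit in the common list. MACS2 peaks with no common OS also lay in Ephb1 (number 3787), Ephb4 (3336), Plxnc1 (4381, with 5 WGATAR in 810 bp) and Sema6a (5256).

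Receptors and effectors that act with plexins and Eph receptors were counted in the same window. Of 52 such genes in a list of co-receptors, GTPase regulators and adaptors, 51 were in the annotation and 20 (39.2%) held 35 OS, or 5.10 per Mb, beside 13.7% and 2.54 per Mb of other genes. Nrp1 and Nrp2, the neuropilins that class 3 semaphorins bind, held 2 and 1 OS. Kdr, a VEGF receptor that pairs with neuropilins, held 3, the earliest at number 262. Among the guanine nucleotide exchange factors, Vav2 held 3 (earliest 328), Tiam1 2 (earliest 211), Vav3 2, Kalrn 2 and Itsn1 2 (earliest 266), and Arhgef12, which binds B plexins, and Arhgef15, an ephexin that acts with Eph receptors, held 1 each. Fyn, a kinase downstream of both systems, held 3, and Itga1, a subunit of the integrin that Sema7a binds, held 5. Rap1a, a GTPase that plexins switch off, held 1, number 75 of the list. Genes of the list were written down with the families in mind and with earlier results of these data known. Many of those with an OS exceed 100 kb. The share and the OS per Mb are therefore a description of this list and were not tested.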

How the data were processed

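Peak lists of 1 GATA4 ChIP sample of adult mouse liver, called against pooled input, were analysed. Per the labels and the study's methods, the authors aligned reads to mm9 with Bowtie 0.12.7, discarded reads that mapped to several places, applied an altered SPP and MACS2 2.0.10 under the IDR protocol to replicates and their pool, and intersected both lists with bedtools 2.16.1. The deposited files hold positions and a score of 1000 in every row, a display value. The reference was NCBI Build 37, which is mm9. All 15087 peaks of the 3 lists lay within its chromosomes. Gene entries of GENCODE M1 that share a symbol were merged, 22380 entries giving 22238 genes, and Efna5 had 2 overlapping entries. Midpoints were matched to gene bodies with 10 kb on either side, and positions within genes used the longest protein-coding transcript. Motifs were exact matches on both strands. Intervals are Wilson intervals at 95%. The members and gene lists were chosen with earlier results of these data known. One marker list is not reported here. Every member is named, and sequences are of the earliest OS of the 8 genes with most OS, ties going to the earlier OS. Sequence of chromosome 18 (Sema6a) is not printed, and Sema6d came last by the tie rule. These genes hold 3 of the 4 OS without WGATAR. No test was run, since the peaks are 1 pooled sample and chose the members. As scores do not vary, list numbers were used in their place. Depth per peak is unknown. Alternatives were other windows, lists, gene models, motifs and assignments to genes. Scripts ran under Python 3.11.15 with scipy 1.17.1 and matplotlib 3.10.9. On simulated data 400 of 400 interval queries and 400 of 400 motif scans were right.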

Additional observations from a re-analysis of the deposited data

How the results depend on the processing

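The counts of 10 genes and 19 OS stayed within 1.5 times their value with a window of 5 kb, the gene body alone, whole peaks, the SPP list, the MACS2 list, the longest protein-coding transcript, and the single nearest TSS within 50 kb. The genes themselves did change under the last of these, which gave 8 genes and 13 OS. Plxnc1 then kept 2 OS, fewer than the 3 of Sema4b, and Plxna4 and Ephb1 kept none. The SPP list holds every common OS, so its counts could not fall. A window of 50 kb raised the main counts to 17 genes and 35 OS. The leading 50% of the common list lowered them to 4 genes and 7 OS, or 0.904 per Mb. Fewer peaks cannot raise these counts, and how much of the fall they account for was not tested. In the 4 equal blocks of the list, from head to end, the member OS numbered 4, 3, 7 and 5. The share with WGATAR rose to 100% when WGATA or GATAR was accepted. The share within 1 kb of a TSS was 0% at 500 bp and 31.6% at 5 kb. The median list position, 64.1% of the common list, became 40.4% in the MACS2 list, where the median of all common OS was 37.4%. The cause was not tested. Leaving out Plxnc1, an alternative chosen after seeing the data, gave 9 genes, 13 OS, 1.72 OS per Mb (plexins alone 4.13 in place of 8.76), WGATAR in 69.2% and a median position of 3072. With the settings run by family, added later too, ephrins stayed at 0 of 8 in all but the 50 kb window, which gave 1 of 8. From 44.4% of plexins and 15% of semaphorins, that window gave 77.8% and 30%, beside 27.7% of all other protein-coding genes. The leading 50% of the list gave 22.2% of plexins, 7.14% of Eph receptors and 5% of semaphorins. No share of other genes was computed for that part of the list. No paired analysis was possible because the peaks come from 1 pooled sample with no replicate columns. With 19 OS the intervals of shares are wide, and no depth is known for a peak.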

Other observations

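Other guidance systems of the same kind were occupied at single genes. Of 19 genes of the slit, robo, netrin, DCC, UNC5 and RGM families, 6 (31.6%) held 7 OS, or 1.39 per Mb. They were Robo1, Robo4, which is known from endothelial cells, Ntn4, Ntn5, Neo1 and Unc5a, and the earliest was an OS of Ntn4 at number 445. No slit, Dcc or Rgm gene held one. The share of genes was above the 13.7% of other genes while the OS per Mb were below their 2.54. This list, too, was chosen with earlier results of these data known.

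Markers of liver cell types were counted in the same window, in which 13.7% of other protein-coding genes held an OS, at 2.54 per Mb. Endothelial markers held OS at 7 of 8 genes, Pecam1, Cdh5, Kdr, Tek, Stab1, Stab2 and Clec4g, with 14 OS or 19.9 per Mb. Hepatocyte markers held OS at 4 of 8, Alb, Ttr, Hnf4a and Cyp7a1, with 4 OS or 10.2 per Mb. Stellate and Kupffer cell markers held 0 of 6 each. Kdr is on the endothelial list and on that of plexin and Eph pathway genes. The marker lists were chosen with earlier results of these data known, and their shares were not tested. The paper reports that deleting Gata4 in hepatocytes almost wholly removed GATA4 from the sites it examined, at factor X, FOG1, HNF4α and HNF6. It places GATA4 at those sites in hepatocytes only. No semaphorin, plexin, Eph receptor or ephrin gene was among them. Stab1 and Stab2, counted here as endothelial, are listed by the paper as bound genes that rose after Gata4 excision in purified hepatocytes. For Stab2 the RT-qPCR of the paper showed the same trend but did not reach significance. The paper also states that less abundant cells, such as cholangiocytes and endothelial cells, express more GATA4 per cell than hepatocytes. Which cells gave the OS of Plxnc1, Plxnd1 or Ephb4 was not tested.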
